A study of Mus musculus with 52 samples.

Results

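Enhancers catalogued in mouse embryonic stem cells (mESCs) that have no counterpart in epiblast-like cells (EpiLCs) and lie between genes, close to a transcription start site (TSS), numbered 1231 of the 8794 mESC enhancers in the deposited table. They were chosen by position alone. From the 8794 regions, a first block of 231 that is sorted separately was set aside, which left 8563. Of these, 7879 were shorter than 5 kb, 4817 of those shared no base with any of the 16576 EpiLC enhancers, 2516 had their centre outside every gene interval of at most 3.2 Mb, 2466 were more than 1 kb from the nearest TSS, and 1231 were at most 50 kb from it. The study performed chromatin immunoprecipitation sequencing on 52 mouse libraries, 43 from mESCs grown with LIF and inhibitors of GSK3 and MEK1 and 9 from EpiLCs harvested at 48 hours, all of C57BL6/129Sv background. The genotypes were control (ABE), cK27R (lysine 27 replaced by arginine in canonical histone H3 only), pK27R (in all H3), SUZ12KO (loss of a core Polycomb subunit, as the name gives it), and an H3.3 knockout alone or with wild-type or K27R add-back, with at most 2 libraries, often separate clones, in a group. The tables analysed here hold coordinates only, so signal per library, and with it every contrast of mutant and control cells, was not analysed here. Each result below is therefore a description of regions, and no test was made. Exact 95% binomial intervals, where given, cover counting error only. Regions of 1 list are not replicates of a condition.

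Enhancers are stretches of DNA where transcription factors bind together and from which genes at a distance are activated. In naive pluripotent cells OCT4 (Pou5f1) and SOX2 bind side by side on a composite element, in which a SOX site is followed by an octamer, and are joined by ESRRB, KLF4, STAT3 and TFCP2L1. On the way to the formative epiblast these naive factors are lost, OTX2 and ZIC factors act with OCT4, and enhancers are exchanged on a large scale while many genes stay active. The mESC catalogue cited in the design text is known to rest on sites bound jointly by OCT4, SOX2 and NANOG, and the EpiLC set was defined there by H3K27ac, H3K4me1 and p300. The mESC and EpiLC sets come from separate publications, so a difference between the sets and a difference in how regions were called cannot be told apart.

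The composite element is shown first, since of the 19 motifs searched it was the most concentrated at the centres of these enhancers. It was searched as CATTGT, 1 free base, then ATGCAAAT, on both strands, with at most 2 mismatches in the 14 fixed bases. Of the 103 members with a match, 101 were read base by base, leaving 1 chromosome aside. Among them 1 had no mismatch and 5 had 1 mismatch. These 6 are printed with 13 bases on either side, from RefSeq's GRCm38 (mm10) genome and read along the strand of the match. Capitals mark the 15 bases of the element, and the name is that of the nearest gene.
Gm11681, chr11:112811253-112811293, plus strand: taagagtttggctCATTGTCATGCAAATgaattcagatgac
9530026F06Rik, chr1:61408734-61408774, minus strand: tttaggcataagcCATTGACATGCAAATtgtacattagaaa
Plppr4, chr3:117310936-117310976, minus strand: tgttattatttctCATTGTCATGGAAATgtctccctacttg
Cdon, chr9:35402848-35402888, plus strand: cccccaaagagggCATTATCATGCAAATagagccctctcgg
Bves, chr10:45324422-45324462, plus strand: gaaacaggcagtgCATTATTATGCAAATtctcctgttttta
Vmn1r202, chr13:22489035-22489075, plus strand: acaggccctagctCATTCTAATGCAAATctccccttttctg

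The exact match lay 104 bp from the centre of its enhancer, 12.4 kb from the TSS of Gm11681. The sites near 9530026F06Rik, Plppr4 and Cdon lay 18, 30 and 19 bp from the centre, and those near Bves and Vmn1r202 61 and 122 bp. In the 95 members whose closest match had 2 mismatches, the median distance from the centre was 51 bp. At the free base between the SOX part and the octamer, the 101 sites held T in 37, C in 32, A in 26 and G in 6.

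Whole centres show how such sites sit among other naive motifs. The next 4 windows of 300 bases are centred on members near Plppr4, Kcnj2, Klf4 and Tfcp2l1. The first pair hold 3 distinct naive motifs each, counting the octamer inside the composite element at Kcnj2. The other pair flank genes of naive transcription factors. Capitals mark matches to the naive motifs, which besides the composite element are the octamer ATGCAAAT, the SOX motif AACAATG, TCAAGGTCA for ESRRB and NR5A2, GGGNGTGG for KLF factors, TTCCNGGAA for STAT factors, and CCAG, 6 free bases, then CCAG for TFCP2L1.
Plppr4, chr3:117310836-117311135, plus strand: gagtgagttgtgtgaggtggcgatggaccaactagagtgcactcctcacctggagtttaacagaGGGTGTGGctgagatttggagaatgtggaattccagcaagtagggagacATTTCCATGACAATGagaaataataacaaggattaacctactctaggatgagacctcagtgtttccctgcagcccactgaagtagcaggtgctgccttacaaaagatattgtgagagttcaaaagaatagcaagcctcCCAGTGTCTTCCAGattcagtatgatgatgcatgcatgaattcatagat
Kcnj2, chr11:111082854-111083153, plus strand: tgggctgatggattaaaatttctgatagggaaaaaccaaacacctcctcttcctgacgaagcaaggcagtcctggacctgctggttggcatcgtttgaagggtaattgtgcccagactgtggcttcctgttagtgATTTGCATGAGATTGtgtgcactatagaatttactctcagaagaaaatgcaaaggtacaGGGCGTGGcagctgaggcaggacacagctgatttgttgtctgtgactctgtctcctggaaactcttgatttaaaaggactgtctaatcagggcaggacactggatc
Klf4, chr4:55519674-55519973, plus strand: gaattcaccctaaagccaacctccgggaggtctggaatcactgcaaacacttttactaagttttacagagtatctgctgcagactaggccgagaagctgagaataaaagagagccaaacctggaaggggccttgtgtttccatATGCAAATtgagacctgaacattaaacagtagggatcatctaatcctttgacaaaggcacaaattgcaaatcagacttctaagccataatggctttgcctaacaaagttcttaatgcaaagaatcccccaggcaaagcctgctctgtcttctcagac
Tfcp2l1, chr1:118625483-118625782, plus strand: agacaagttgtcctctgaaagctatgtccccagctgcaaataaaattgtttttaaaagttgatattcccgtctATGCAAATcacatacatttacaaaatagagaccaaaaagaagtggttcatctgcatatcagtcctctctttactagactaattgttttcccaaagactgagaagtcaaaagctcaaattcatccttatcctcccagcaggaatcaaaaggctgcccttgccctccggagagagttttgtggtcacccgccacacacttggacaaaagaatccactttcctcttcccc

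In the Plppr4 window the capitals are a KLF match at base 65, the composite element at base 114 on the minus strand and a TFCP2L1 match at base 252. In the Kcnj2 window, the composite element and the octamer inside it begin at base 136 on the minus strand and a KLF match begins at base 195. The Klf4 and Tfcp2l1 windows each hold 1 exact octamer, at base 144 and base 74, and no composite element within 2 mismatches. A match is a run of letters, not a shown binding site.

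The composite element was found in 103 of 1231 members, or 8.37% (95% interval 6.88 to 10.06%), when the 500 bp around each centre were searched. In mESC enhancers at the same positions that do overlap an EpiLC enhancer (955 regions, called retained below) the share was 7.33%, so members and retained regions had overlapping intervals. EpiLC enhancers at the same positions without an mESC counterpart (3180 regions, EpiLC-only) held it in 1.32%. As a background for position, windows of the same length were taken every 5 kb wherever the genome lies outside gene intervals and 1 to 50 kb from a TSS. Of these 109999 grid windows 0.699% held the element, and of 24197 windows at TSSs 0.351%. The 2250 mESC-only enhancers centred in a gene held it in 6.53% and the 1235 over 50 kb from a TSS in 7.37%, again with intervals that overlapped that of the members. Member windows held it more often than EpiLC-only windows, grid windows and TSSs, with intervals that did not overlap. All 8794 mESC enhancers held it in 6.58%. The mESC catalogue is known to rest on joint OCT4, SOX2 and NANOG binding. This contrast therefore cannot be told apart from how the list was made.

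Some of the other naive motifs were more frequent in every kind of mESC enhancer than in EpiLC-only enhancers, and some were at similar levels in both. The octamer alone was found in 11.45% of members (9.73 to 13.37%), 11.31% of retained, 4.91% of EpiLC-only and 3.94% of grid windows. Its letters are part of the composite element, and it stood in 34.95% of the 103 members with that element but also in 9.31% of the 1128 without. The ESRRB and NR5A2 motif, to which the nuclear receptors ESRRB and NR5A2 bind as single molecules, was found in 4.63% of members (3.53 to 5.96%), against 4.08% of retained, 1.85% of EpiLC-only and 1.23% of grid windows. The SOX motif was found in 13.73% of members, 14.03% of retained and 6.82% of EpiLC-only windows, and the last of these was below the 9.33% of the grid. The mESC-only enhancers in genes and far from a TSS were like the members in the octamer (11.20 and 11.98%) and the ESRRB and NR5A2 motif (3.38 and 4.13%), and held SOX matches in 16.93 and 17.49%. KLF matches, for the zinc-finger factors KLF2, KLF4 and KLF5, were frequent throughout, with 24.61% of members (22.23 to 27.12%), 28.06% of retained, 22.14% of EpiLC-only and 12.82% of grid windows. STAT matches (2.52% of members, 1.72 to 3.56%) and TFCP2L1 matches (4.55%, 3.45 to 5.87%) stood beside 1.43% (1.36 to 1.51%) and 3.94% (3.83 to 4.06%) of the grid, so STAT lay just above it and TFCP2L1 overlapped it.

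At least 1 of the 7 naive motifs was present in 637 members, or 51.75%, beside 53.09% of retained, 38.40% of EpiLC-only and 29.46% of grid windows. Among members, 594 had none, 448 had 1, 157 had 2, 30 had 3 and 2 had 4. The 2 members with 4 lay 1.5 kb upstream of Slc9a2, which encodes a sodium-proton exchanger, and 1.64 kb upstream of Psmd1, a proteasome subunit. They are singled out here after their values were seen. Enhancers with 3 or more made up 2.60% of members, 2.62% of retained, 0.660% of EpiLC-only and 0.215% of grid windows. An octamer inside a composite element was counted as a second motif, as at Slc9a2. The octamer stood in 36 of the 103 members with the element, so these counts are raised most where the element is frequent.

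**Figure D1:**
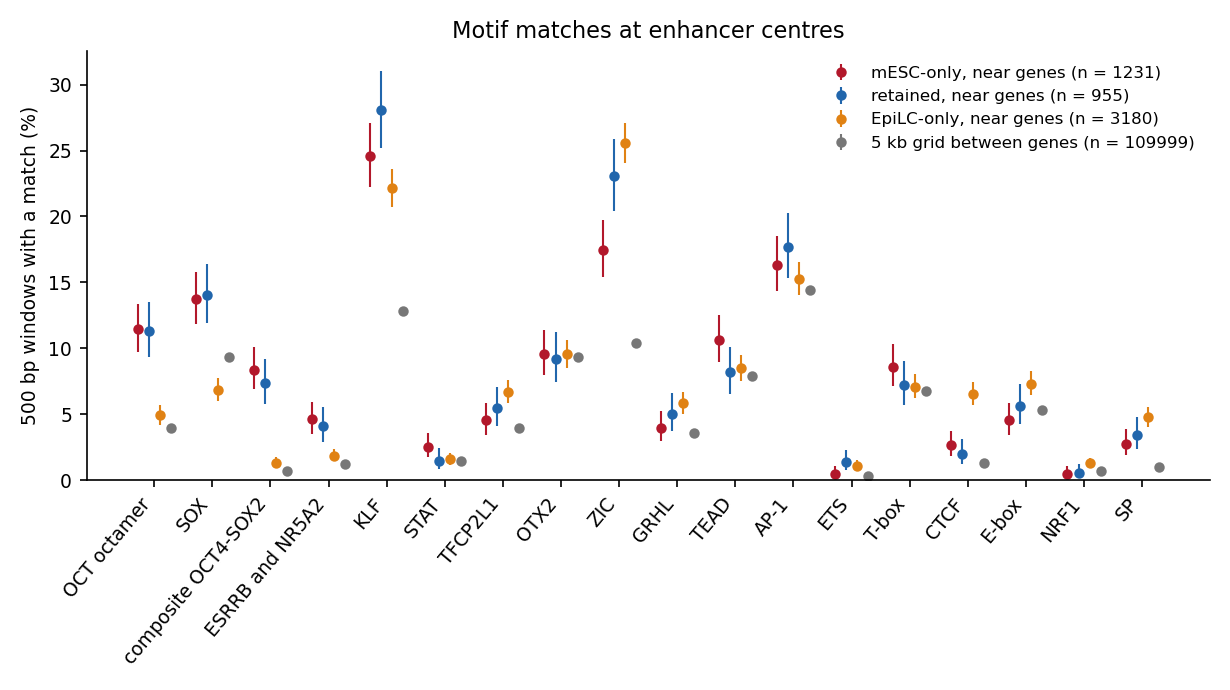
Share of 500 bp windows with at least 1 match (vertical axis, percent) for 18 motifs, in 1231 mESC-only enhancers near genes, 955 retained, 3180 EpiLC-only and 109999 grid windows. Points are shares and bars exact 95% binomial intervals. The composite element, the octamer, SOX and ESRRB points of mESC-only and retained enhancers sit together above EpiLC-only and grid, while ZIC and CTCF points of mESC-only enhancers sit below EpiLC-only.

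Motifs of factors known from the formative and primed epiblast gave no uniform picture. ZIC matches (CAGCAGG), for zinc-finger factors that act as naive pluripotency is left, were found in 17.47% of members (15.38 to 19.70%), below the 23.04% of retained and the 25.57% of EpiLC-only windows and above the 10.38% of the grid. OTX2 matches (GGGATTA) were at the grid level in all 3 kinds of enhancer, with 9.59% of members, 9.21% of retained, 9.53% of EpiLC-only and 9.35% of grid windows. The share was 5.28% of the 398 members 25 to 50 kb from a TSS (3.3 to 7.95%) and 12.44% of the 394 members within 10 kb (9.34 to 16.11%). AP-1 matches (TGANTCA) stood in 16.33% of members and 14.45% of the grid. T-box matches (TCACACC) stood in 8.61% of members and 6.79% of the grid. GRHL matches (AACCNGTT), for the epithelial grainyhead factors, stood in 3.98% of members, 5.03% of retained and 5.82% of EpiLC-only windows. TEAD matches (CATTCCA) were found in 10.64% of members and 8.17% of retained windows, with overlapping intervals. Of the 225 TEAD matches in members, 66 lay in a single enhancer near 4930517M08Rik, so counts of matches per kb are not given for this motif.

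Among general motifs, the one for CTCF, which anchors chromatin loops (searched as CC, 3 free bases, then AGGNGGC), was found in 2.68% of members (1.85 to 3.74%) and 6.51% of EpiLC-only windows. It was found in 1.99% of retained and 1.32% of grid windows. The SP motif (GGGGCGGGG), typical of CpG-rich promoters, stood in 2.76% of members and 17.43% of TSS windows. Matches of NRF1 (GCGCATGC) and ETS (CCGGAAGT), both common at TSSs, were found in 6 members each, or 0.487%, beside 3.86 and 5.69% of TSS windows. CCAAT boxes, 5 letters that occur often by their shortness, stood in 57.03% of members and 56.88% of the grid. In the SP, NRF1 and ETS letters the members were unlike promoters, but the rule itself keeps them more than 1 kb from the nearest TSS. Grid windows held SP in 0.952%, below the interval of the members (1.92 to 3.84%). They held NRF1 in 0.684% and ETS in 0.327%, both inside the interval of the members (0.179 to 1.06%).

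Some of the naive motifs were also concentrated at the centres of the enhancers. Composite matches numbered 80 within 100 bp of the 1231 centres, or 0.325 per kb, and 38 in the flanks 1 to 2 kb away, or 0.0154 per kb, a ratio of 21.1. The ratio was 20.4 in retained enhancers and 2.27 in EpiLC-only enhancers. Most of the excess lay within 200 bp, since the 100 bp bins on either side of the centre held 41 and 39 matches, the next bins outward 11 each, and the bins beyond 4 and 1. The octamer had a ratio of 6.30, the ESRRB and NR5A2 motif 3.71, SOX 2.15 and KLF 1.99. Outside the naive list, ZIC had a ratio of 1.73 and SP 2.02, the latter from 17 matches at the centre. STAT (1.16), TFCP2L1 (1.13), GRHL (0.974) and CCAAT (1.06) were as dense in the flanks as at the centre, and OTX2 (0.753) and the E-box CACGTG (0.536) were sparser at the centre. In EpiLC-only enhancers the ZIC ratio was 2.30 and the CTCF ratio 4.6, against 1.88 for CTCF in members. EpiLC-only enhancers are longer, with a median of 1600 bp, and the part of length in the ratios was not tested. As with the shares, the concentration of composite, octamer and SOX matches at the centres cannot be told apart from how the mESC list was made.

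**Figure D2:**
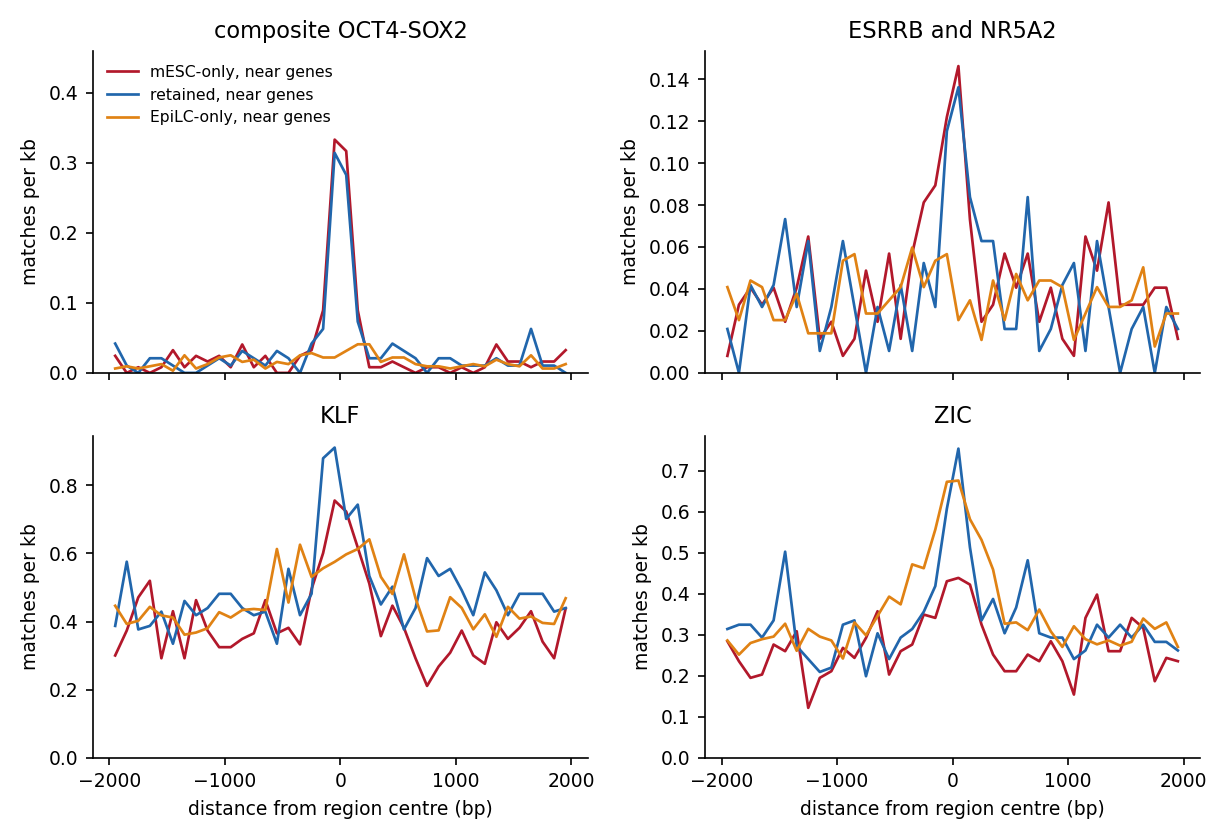
Matches per kb (vertical axes) in 100 bp bins by distance from the region centre in bp (horizontal axes) for 4 motifs, with 1 line for each kind of enhancer. The composite element reaches 0.333 per kb beside the centre of mESC-only enhancers and forms a narrow peak in mESC-only and retained enhancers but not in EpiLC-only enhancers, whose ZIC peak is higher and broader than that of mESC-only enhancers.

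Few members held more than 1 kind of naive motif, and the composite element showed no clear partner. Of the 103 members with it 1 also held the ESRRB and NR5A2 motif (0.971%, interval 0.0246 to 5.29%), whereas 56 of the other 1128 did (4.96%, 3.77 to 6.40%), and these intervals overlap. KLF matches stood in 24.27% of members with and 24.65% of members without the composite element. SOX matches anywhere in the window stood in 16.50% of members with the element and 13.48% of members without it. In distance classes from the TSS the composite element varied little, with 6.85% of members at 1 to 10 kb, 9.79% at 10 to 25 kb and 8.29% at 25 to 50 kb. It was found in 7.37% of the 896 members upstream of their TSS and in 11.04% of the 335 downstream, again with overlapping intervals.

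Base composition set the members apart from promoters and, less so, from EpiLC-only enhancers. Median GC content of the 500 bp windows was 44.8% (quartiles 41.8 and 47.8%), beside 46.8% in retained, 48.6% in EpiLC-only, 42.8% in grid and 57.4% in TSS windows. A member window held a median of 4 CpG sites, a retained window 5, an EpiLC-only window 7, a grid window 3 and a TSS window 23. CpG sites are where DNA is methylated in mammals, and most enhancers are poor in them. Interspersed and simple repeats, the soft-masked bases of the genome file, made up a median of 17% of a member window and 29% of a grid window. Windows that were mostly repeat (over 50%) made up 8.94% of members (7.40 to 10.67%), 10.68% of retained, 22.86% of EpiLC-only and 29.97% of grid windows. Repeat content dipped at the centre, from 31% of bases 2 kb away to 19.3% in the bin beside the centre, while GC content was 44.3 and 44.7% in those bins. Of the 1231 members 226 were shorter than the 500 bp window, so their windows include flanking bases.

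Median length, within the limit that the rule sets, was 649 bp (quartiles 532 and 768, range 85 to 4642 bp). It was 638 bp for mESC-only enhancers in genes, 600 bp for those over 50 kb from a TSS, 786 bp for retained and, with no length limit, 1600 bp for EpiLC-only enhancers. Among the longest, members of 4568 and 4550 bp lay nearest to Ccdc113 and Dennd2c and held none of the 19 motifs in their central 500 bp. The next mESC region above the length limit, at 5076 bp near She, was left out by it. The 308 members of at most 531 bp held the octamer in 7.79% (5.06 to 11.37%) and KLF matches in 18.18%, beside 15.11 and 24.76% in the 311 members of 533 to 649 bp. Longer members held the octamer in 12.79% (650 to 768 bp) and 10.10% (769 bp and more), so its share did not rise steadily with length.

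Position relative to genes was close to that of the sequence available. The nearest TSS was a median of 16.5 kb from the centre (quartiles 7.98 and 29.2 kb), compared with 18.1 kb for grid positions. Of the members 896, or 72.79% (70.21 to 75.26%), lay upstream of that TSS, as did 70.98% of grid positions. A position downstream of a TSS and outside genes has to lie past the end of a gene, which favours the upstream side for any list chosen this way. Upstream shares fell with distance, from 85.53% at 1 to 10 kb (81.67 to 88.86%) through 69.70% at 10 to 25 kb to 63.57% at 25 to 50 kb. On the grid they were 80.78, 70.21 and 63.69%, so the member share stood apart only in the nearest class. Retained (75.18%) and EpiLC-only enhancers (73.55%) had similar upstream shares overall.

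At the limits of the rule, the members closest to a TSS lay 1023 bp upstream of Msln, 1049 bp upstream of Hsdl2 and 1102 bp upstream of Gm10636, and a region 981 bp from the TSS of Snx13 was just outside. The farthest lay 49890 bp from Plppr4, 49721 bp from Nupl2 and 49587 bp from Samd5, and a region 50141 bp from Mir101b was the next beyond. Gene intervals just under and over the length limit measured 2567878 and 4686084 bp, and 97 intervals exceeded it.

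**Figure D3:**
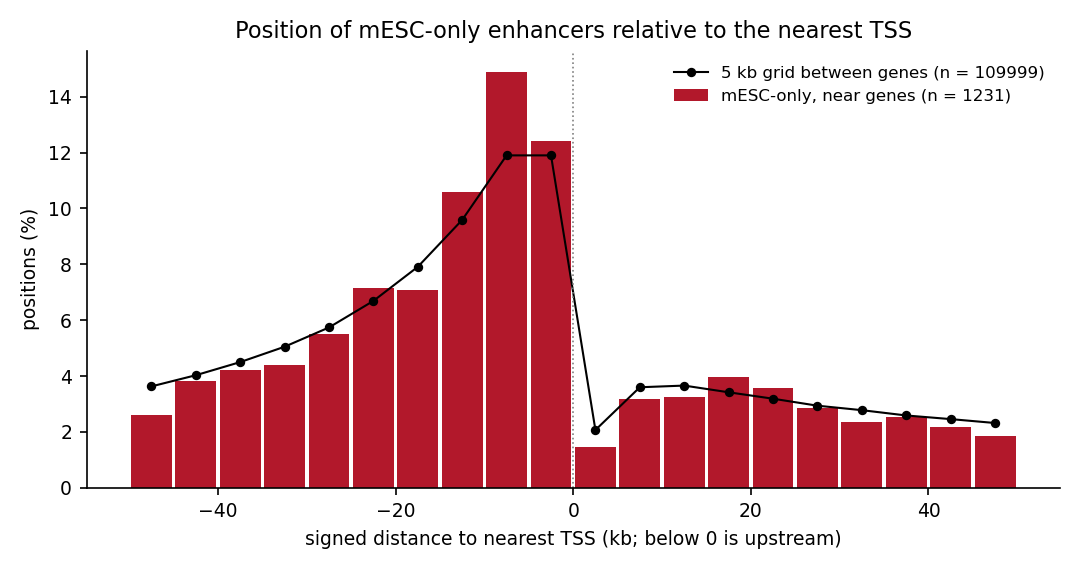
Signed distance from region centre to nearest TSS in kb (horizontal axis, 5 kb bins, below 0 is upstream) against the share of positions in percent (vertical axis). Bars are the 1231 mESC-only enhancers and the line the 109999 grid positions between genes. The bin 5 to 10 kb upstream holds 14.9% of members, and the bars otherwise follow the line.

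Members lay more often between divergent genes, whose promoters face the region from both sides, than the genome's gaps would hold. Divergent pairs flanked 32.17% of members (29.56 to 34.86%), convergent pairs 15.52% and genes in tandem 52.15%, while 2 members lay at a chromosome's edge. Over all gaps between genes, 24.2% of bases were divergent, 22.1% convergent and 53.7% tandem. The limit of 50 kb from a TSS favours divergent gaps, which have a TSS at either end, and mESC-only enhancers beyond it were divergent in 21.62%. Retained (33.09%) and EpiLC-only enhancers (31.32%), held to the same limit, were divergent as often as members.

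In the fuller GENCODE M21 annotation 994 centres (80.75%) were still intergenic, 171 fell in introns, 25 in exons and 41 within 1 kb of an annotated TSS. Of the 196 exon or intron hosts 116 were protein-coding and 80 noncoding genes. EpiLC-only enhancers were within 1 kb of an annotated TSS in 10.22% and members in 3.33% (2.40 to 4.49%). Across chromosomes, chromosome 11 held the most members per Mb (0.721) and the X chromosome the fewest except Y (0.292). The 50 members on X were nevertheless 20.4% of the mESC enhancers there, a higher share than on any autosome (11.5 to 16.7%).

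The nearest EpiLC enhancer was usually not next door. The gap, edge to edge, had a median of 42.2 kb (quartiles 15.6 and 103.8 kb). An EpiLC enhancer lay within 1 kb of 24 members, within 10 kb of 213 (17.30%, 15.23 to 19.53%) and within 50 kb of 677 (55.00%). Enhancers only found in mESCs but centred in a gene had one within 10 kb in 12.71%, and those over 50 kb from a TSS in 7.21%. The 5 closest misses were 4 bp near Ccdc88b, 7 bp near Scmh1, 27 bp near Zfp704, 71 bp near Zcchc9 and 93 bp near Mlxip. Such members are mESC-only by a few bases. The 213 members within 10 kb of an EpiLC enhancer held KLF matches in 31.92% (25.72 to 38.64%) and the octamer in 7.04% (4 to 11.35%). The 554 members over 50 kb away held them in 21.66% (18.30 to 25.33%) and 12.27% (9.66 to 15.30%). The octamer intervals overlap, and of the 19 motifs only KLF and the octamer are given for this split. The classes also differed in median distance to the TSS (9.99 and 18.7 kb) and median GC content (45.2 and 44.2%), and the part of either was not tested.

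**Figure D4:**
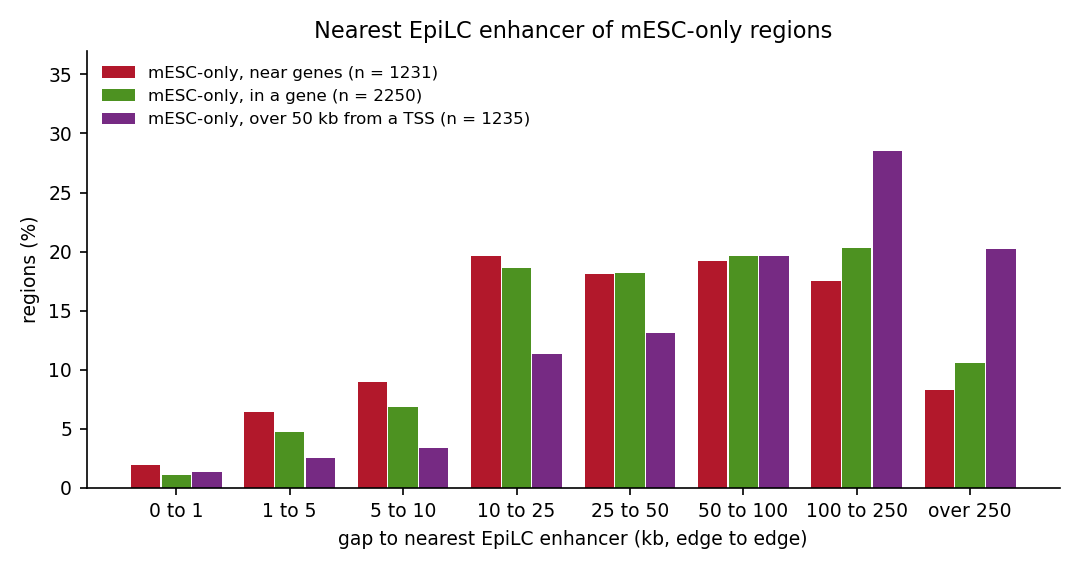
Gap from mESC-only regions to the nearest EpiLC enhancer in kb (horizontal axis, edge to edge) against the share of regions in percent (vertical axis), for 1231 members near genes, 2250 regions in a gene and 1235 regions over 50 kb from a TSS. Members near genes have 19.6% of regions at 10 to 25 kb, and regions far from a TSS have 20.2% beyond 250 kb, against 8.29% of members.

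Other mESC enhancers were spaced widely by construction of the list, since no pair of mESC regions was closer than 12516 bp, while EpiLC regions came as close as 100 bp. Another mESC enhancer lay within 50 kb of 483 members (39.24%), a retained one within 50 kb of 252 (20.47%), and a region of the separately sorted first block within 50 kb of 24 (1.95%).

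The members were spread thinly over genes. A gene is said to have an enhancer, of either cell type, where its TSS is the nearest to the enhancer's centre and at most 50 kb away, so enhancers farther off or nearer to another TSS are not counted. They were nearest to 1177 of the 23745 named genes (4.96%), of which 1132 had 1 member, 45 had 2 and 0 had more, and 9 members were nearest to unnamed intervals. The 12516 bp spacing limits how many a gene can have. Of these 1177 genes 973 were protein-coding (82.7%) and 162 long noncoding RNAs (13.8%), beside 84.6 and 8.71% of all named genes. Their TSS windows met a CpG island rule (observed over expected CpG above 0.6 and GC above 50%) in 52.93% (50.03 to 55.81%), beside 47.79% of all genes and 58.90% of genes with a retained enhancer.

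Genes with a member were nearest to an EpiLC enhancer of any kind somewhat more often than genes at large, 466 of 1177 (39.6%) against 31.4% of all genes. The other 711 (60.4%) were nearest to none, and 654 of them had member enhancers and no other mESC enhancer either. An EpiLC-only enhancer was nearest to 389 (33.1%), compared with 26.5% of all genes and 49.6% of the 893 genes with a retained enhancer between genes. A retained mESC enhancer stood beside the member at 151 genes (12.8%). Shares over all genes are not given for this count or for the 654 genes, so neither is read as high or low.

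Of the naive pluripotency list, 5 of 29 genes (17.2%) were nearest to a member, against 4.96% of all genes, and each had 1 member. The list was chosen with results of these data known, and the median gene of it, as of all genes, had 0 members. Klf4, a zinc-finger factor of the naive network, had a member 12.7 kb downstream of the TSS. It was the only mESC enhancer for which the TSS of Klf4 was nearest and within 50 kb, and no EpiLC enhancer met these terms, although 1 lay 41.2 kb from the member. Tbx3, a T-box repressor that blocks differentiation, had a member 13.3 kb upstream as its only mESC enhancer on these terms, and 1 EpiLC enhancer. This EpiLC enhancer was not EpiLC-only, as it overlaps an mESC enhancer that these terms do not count for Tbx3. The nearest other mESC enhancer lay 21.6 kb from the member. The Tbx3 member carried KLF and TEAD matches. Tfcp2l1, a grainyhead-family factor downstream of LIF, had a member 2.31 kb upstream with an octamer and a ZIC match. It also had 1 mESC enhancer, of the separately sorted first block, that overlaps an EpiLC enhancer. Nr5a2, a nuclear receptor, had a member of 336 bp lying 36.6 kb upstream with none of the 19 motifs. Nr5a2 also had 1 first-block mESC enhancer that overlaps an EpiLC enhancer, and 1 EpiLC enhancer. Lifr, the LIF receptor subunit, had a member 47.5 kb upstream with a SOX match and 16 CpG sites. Lifr also had 1 mESC enhancer that overlaps an EpiLC enhancer, and 2 EpiLC enhancers, 1 of them EpiLC-only. Over all kinds of mESC enhancer, 26 of the 29 naive genes (89.7%) were nearest to at least 1, against 19% of all genes, so for most naive genes the nearby mESC enhancers failed a step of the rule.

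General pluripotency genes counted 3 of 20 (15%). Zfp281, a zinc-finger factor that promotes exit from the naive state, had 2 members 11.4 and 40.7 kb upstream, no other mESC enhancer and 2 EpiLC-only enhancers. L1td1, an RNA-binding protein of pluripotent cells, had a member 20.6 kb downstream with a KLF match, only 2.65 kb from an EpiLC enhancer. Mycn, a MYC-family factor, had a member 31.9 kb downstream with KLF and AP-1 matches, among 3 mESC and 7 EpiLC enhancers. Of the formative and primed list 1 of 26 genes (3.85%) had a member, close to the background of all genes. This was Foxa2, an endoderm regulator, with a member 17.6 kb downstream and 2 EpiLC-only enhancers. EpiLC-only enhancers between genes were nearest to 13 of these 26 genes (50%) and to 7 of the 29 naive genes (24.1%), at a background of 10.5% of all genes. Retained enhancers between genes were nearest to 6 (23.1%) and 9 (31%) of them, at a background of 3.76%.

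Among Polycomb genes 2 of 29 (6.90%) had members. Eed, the core subunit that reads trimethylated H3K27, had 1 member 16.7 kb upstream with octamer, OTX2 and ZIC matches. Mtf2, an accessory subunit that brings the complex to CpG islands, had 2 members 14.1 and 29.9 kb upstream with no naive motif. Neither gene was nearest to an EpiLC enhancer. In the signalling list 3 of 30 genes (10%) had members: Bmp4, the ligand, 22.1 kb upstream with a SOX match, and its targets Id2, 27.1 kb downstream with a SOX match, and Id3, 3.16 kb downstream with an ESRRB and NR5A2 match. Id2 alone of the 3 was nearest to EpiLC enhancers, 2 of them. Of the acetyltransferase, deacetylase and Mediator list 3 of 22 had a member, among them Hdac1, which encodes a deacetylase, and Med23, a Mediator subunit.

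Developmental regulators were the list with the highest share, 6 of 25 (24%), and each had its member as its only mESC enhancer. Among them were Meis1, Msx2 and Neurog2, and also Olig2 and Sox7, which are named here after their values were seen. None of the 6 members held a naive motif in its central 500 bp. Of these genes Meis1 alone was nearest to an EpiLC enhancer. In the germ cell and 2-cell list 1 of 15 genes, Stra8, had a member, 20.8 kb downstream with SOX and composite matches. Counts were 0 of 10 for DNA methylation, 0 of 10 for H3.3 and its chaperones, 0 of 22 for ribosomal and housekeeping genes and 0 of 18 for muscle and liver genes.

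**Figure D5:**
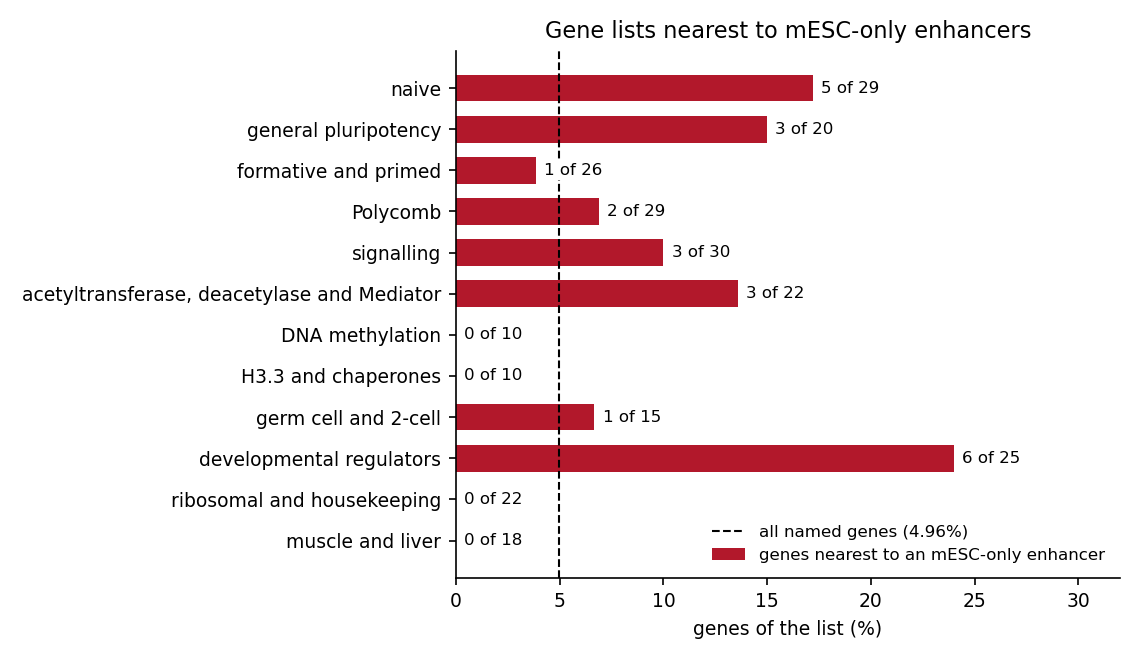
Share of each gene list nearest to at least 1 member (horizontal axis, percent), with the count beside each bar and a dashed line at the 4.96% of all named genes. Developmental regulators (24%), naive (17.2%) and general pluripotency (15%) lie right of the line. So do acetyltransferase, deacetylase and Mediator (13.6%), signalling (10%), Polycomb (6.9%) and germ cell and 2-cell (6.67%). Formative and primed (3.85%) and the lists with a count of 0 lie left of it. The lists are small, with 10 to 30 genes, and no intervals are drawn.

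The 10 genes at the head of the ranking by number of members had 2 members each, as did 45 genes in all. Ties were ordered by number of mESC enhancers, so the 1 further mESC enhancer that each of the 10 had follows from the ranking. The 10 genes include 9630028H03Rik, Adam19, Fezf2, Gpc6, Kcnj2, Mtf2, Ngfr, Nptx2 and Rad54b. Fezf2, a forebrain factor, had members 7.66 kb downstream and 12.1 kb upstream. Adam19 had members 34.0 and 12.4 kb upstream, the first with the composite element. Kcnj2, a potassium channel gene, had members 22.7 kb upstream and 16.8 kb downstream, the latter printed above. Gpc6, Kcnj2 and Mtf2 were nearest to 0 EpiLC enhancers, Adam19 to 2 and 9630028H03Rik, Fezf2, Ngfr, Nptx2 and Rad54b to 1 each.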

How the data were processed

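Per the labels and the series' design text, the deposited tables hold coordinates in mm10 for regions over which the authors compared libraries: enhancers of mESCs and EpiLCs from separate publications, lifted over by the authors, and gene bodies. The first of these lists 8794 regions, the second 16576 and the third 24402. Trimmomatic 0.38, Bowtie2 2.3.4.1 and bedtools 2.29.2 appear among the tools in the submitters' processing notes. The tables have 0 columns with library values, so sequencing depth is unknown. Gene starts count from 0, and enhancer starts were taken to do so as well.

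From the coordinates, members were found by the rule given above, any shared base counting as overlap. The 231 rows set aside are those before the table's chromosome order restarts. Genes (23811 intervals) were named from RefSeq GRCm38.p6 and GENCODE M21 by exact match or by overlap covering at least 0.8 of the union. Each region belongs to the gene whose TSS is nearest its centre, if within 50 kb. Motifs were counted in 500 bp windows on both strands of the RefSeq sequence, which is that of C57BL/6J and not of the cells used. Grid windows with unknown bases were left out. Intervals on shares are exact Clopper-Pearson 95% intervals (scipy 1.17.1, numpy 2.4.6, pandas 2.3.3, Python 3.11.15), and code was tested on simulated data. Alternatives changed the overlap rule, gene length limit, TSS distance, annotation, window and mismatches.

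The named genes are the 10 nearest to most members (ties by number of mESC enhancers, then name), all genes with a member in the first 5 lists and up to 4 of each other list. Members named singly are the 3 longest, the 3 nearest to and the 3 farthest from a TSS, and the 5 nearest to an EpiLC enhancer. Some genes that this rule names are not reported here. Members, lists and motifs were chosen with earlier results of these data known.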

Additional observations from a re-analysis of the deposited data

How the results depend on the processing

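The number of members was 1231 and moved to 806 when gene intervals of any length were used and to 701 when the TSS had to lie within 20 kb. It stayed between 1207 and 1643 under the other alternatives for overlap, gene length, distance and start counting. The upstream share of 72.79% became 79.17% within 20 kb, 64.26% with GENCODE M21 gene starts and, in an alternative chosen after seeing the data, 69.54% with GENCODE protein-coding starts. The share with at least 1 naive motif, 51.75%, was 41.43% in 300 bp windows, 67.42% in 1000 bp windows and 58.73% over whole regions. The composite share of 8.37% stayed between 7.72 and 8.77% for other windows and for a wider EpiLC exclusion, but was 0.569% with at most 1 mismatch and 35.26% with at most 3, since the mismatch limit sets how loosely the element is read. Within 20 kb, naive genes with a member fell to 3 and general pluripotency genes to 1. The share over all genes is not given for that limit, so these counts are not read as high or low. Counting every gene within 50 kb raised naive genes to 6 of 29 and Polycomb genes to 4 of 29. General pluripotency genes stayed at 3 of 20 and signalling genes at 3 of 30. The count over all genes rose from 1177 to 2201 of 23745, so the general pluripotency and signalling shares stood nearer to that of all genes. No paired analysis was possible because the tables hold no values per library, and for the same reason no replicate could be left out. Depth of the libraries does not enter these values, while the number of regions limits the shares. Depth of the data behind the published enhancer sets is unknown, and its part in which regions are mESC-only was not tested.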
